A study of Mus musculus with 4 samples.

Results

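Retinoic acid signalling was examined through 9 genes, found by their symbols among the 55405 genes of the count matrices: Aldh1a2, Cyp26b1, Cyp26a1, Rara, Rarb, Rxra, Crabp1, Crabp2 and Stra6. All 9 were present. Retinoic acid is made from vitamin A (retinol) by successive oxidations to retinal and then to the acid, acts by binding nuclear receptors of the RAR family that pair with RXR partners on DNA, and is cleared by CYP26 oxidases. In the embryonic heart the epicardium, the outer cell sheet, is known as a source of retinoic acid, and the places that make it and the places that destroy it are typically kept apart. Aldh1a2 encodes the main embryonic retinal dehydrogenase, Cyp26a1 and Cyp26b1 encode clearing oxidases, Rara and Rarb encode receptors, Rxra encodes their shared partner, Crabp1 and Crabp2 encode carriers that hold retinoic acid in the cytoplasm, and Stra6 encodes a membrane receptor that takes up retinol from its plasma carrier.

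The data were droplet-based single-cell RNA sequencing of ventricles of mouse embryos at E12.5 (embryonic day), with 2 libraries in each of 2 groups. Embryos of the group called KO here carried Gata4fl/fl, and those of the group called het carried Gata4fl/+. Both groups also carried the Rosa26mTmG/+ reporter and the Cdh5(Pac)-CreER transgene, a tamoxifen-inducible Cre driven by an endothelial promoter, and both received tamoxifen at E9.5. Cre acts in cells with active Cdh5, and recombined alleles pass to all their descendants, also those that no longer use Cdh5. Which cells had lost Gata4 alleles was not measured here, and neither group had an intact pair of alleles without Cre. Whether single embryos or pools went into a library is not given, so p-values measure the spread between these libraries and nothing wider. The labels also conflict on the kit, naming a 3′ version 2 protocol in 1 place and Chromium Next GEM in another.

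The matrices held 137890971 to 190207638 UMIs (unique molecular identifiers, each standing for 1 captured transcript) per library. After filters, 13522 and 6785 cells remained in KO 1 and KO 2, and 22474 and 9938 cells remained in het 1 and het 2. Libraries of a pair shared 23 to 103 cell barcodes, 0.268 to 0.686% of the smaller library. Library het 1 stood apart: its median was 4165.5 UMIs per cell, against 7087 to 14048 in the other 3, 76.96% of its cells fell in unnamed clusters (43.52 to 57.92% elsewhere), and 83.5% of its cardiomyocyte-like cells came from 1 cluster that held 7.07 to 19.9% of that class elsewhere. Cells were grouped without using the 9 genes, and clusters were named from markers: epicardial markers, for example, took 0.441 to 0.470% of UMIs in epicardial-like cells and at most 0.0166% in every other class. The 6 classes compared were endothelial-like (776 and 450 KO cells, 593 and 764 het cells), cardiomyocyte-like, mesenchymal-like, epicardial-like (328 and 145 KO cells, 80 and 193 het cells), macrophage-like and erythroid-like. Erythroid-like cells served as background, since UMIs of these genes there may be free RNA caught in the droplet. Cluster 14 (258 and 113 KO cells, 723 and 407 het cells), led by Wnt4 and Wnt9b, carried endothelial markers at 0.452 to 0.576% of its UMIs, against 0.655 to 0.754% in endothelial-like cells, but none of them was among its 10 leading genes, so it was kept apart and is given by number. Levels below are CPM, the UMIs of a gene scaled to the total UMIs of the class in the same library, with SD over the libraries. They come from 3′ ends and are not scaled by length, so they are compared between cells and not between genes.

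Gata4, the targeted gene, stood in endothelial-like cells at 168.2 and 158.3 CPM in KO libraries, against 92.7 and 81.1 CPM in het libraries. The KO libraries were the higher ones, with a log2 difference of 0.91 (SE 0.146, edgeR adjusted p = 0.411). Counting the 3′ end does not check the deletion, since the labels do not say which part of the gene the floxed allele loses.

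Aldh1a2, which makes retinoic acid, was concentrated in epicardial-like cells. It stood there at 471.2 and 492.1 CPM in KO libraries, against 591.3 and 486.0 CPM in het libraries. Epicardial-like cells held 12413 of the 17230 Aldh1a2 UMIs in all kept cells. The next class, mesenchymal-like cells, had 17.3 and 16.6 CPM in KO libraries, against 17.9 and 12.8 CPM in het libraries. Over the 4 libraries the epicardial-like mean of 510.1 ± 54.8 CPM was 31.6-fold above the mesenchymal-like mean of 16.1 ± 2.29 CPM, with no overlap of libraries. The mesenchymal-like mean was in turn 9.30-fold above the next, also with no overlap. The other 4 classes averaged 0.548 to 1.74 CPM, overlapped one another in the order of their means, and included the erythroid-like background.

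Within the mesenchymal-like class, Aldh1a2 was split between clusters. Cluster 13, led by Tnxb and Dpep1 and holding Col14a1 among its leading genes, had 31.5 and 29.4 CPM in KO libraries, against 30.3 and 25.0 CPM in het libraries. Cluster 6, led by the cartilage matrix genes Matn4 and Col9a1, had 3.29 and 1.92 CPM in KO libraries, against 3.89 and 2.25 CPM in het libraries. A further cluster with epicardial markers, cluster 16, was left unnamed because cardiomyocyte markers took 1% or more of its UMIs. Of its 1325 cells, 1250 came from het 1, in which Aldh1a2 stood at 264.6 CPM.

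The share of epicardial-like cells with an Aldh1a2 UMI, after each cell was thinned to 2000 UMIs, was 56.6% (95% exact binomial interval 51.0 to 62.1) and 64.1% (55.8 to 71.9) in KO 1 and KO 2, against 68.8% (57.4 to 78.7) and 58.6% (51.2 to 65.6) in het 1 and het 2. These intervals cover counting error only. Without thinning the shares were 93.3 and 97.2% in KO libraries, against 95 and 97.4% in het libraries. In erythroid-like cells the thinned shares were 0.0910 and 0.126% in KO libraries, against 0.206 and 0.0635% in het libraries. Between genotypes, epicardial-like Aldh1a2 averaged 481.6 ± 14.8 CPM in KO libraries and 538.6 ± 74.5 CPM in het libraries (SD, n = 2 each), and the groups overlapped. The log2 difference was −0.14 (SE 0.209, edgeR adjusted p = 1).

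**Figure D1:**
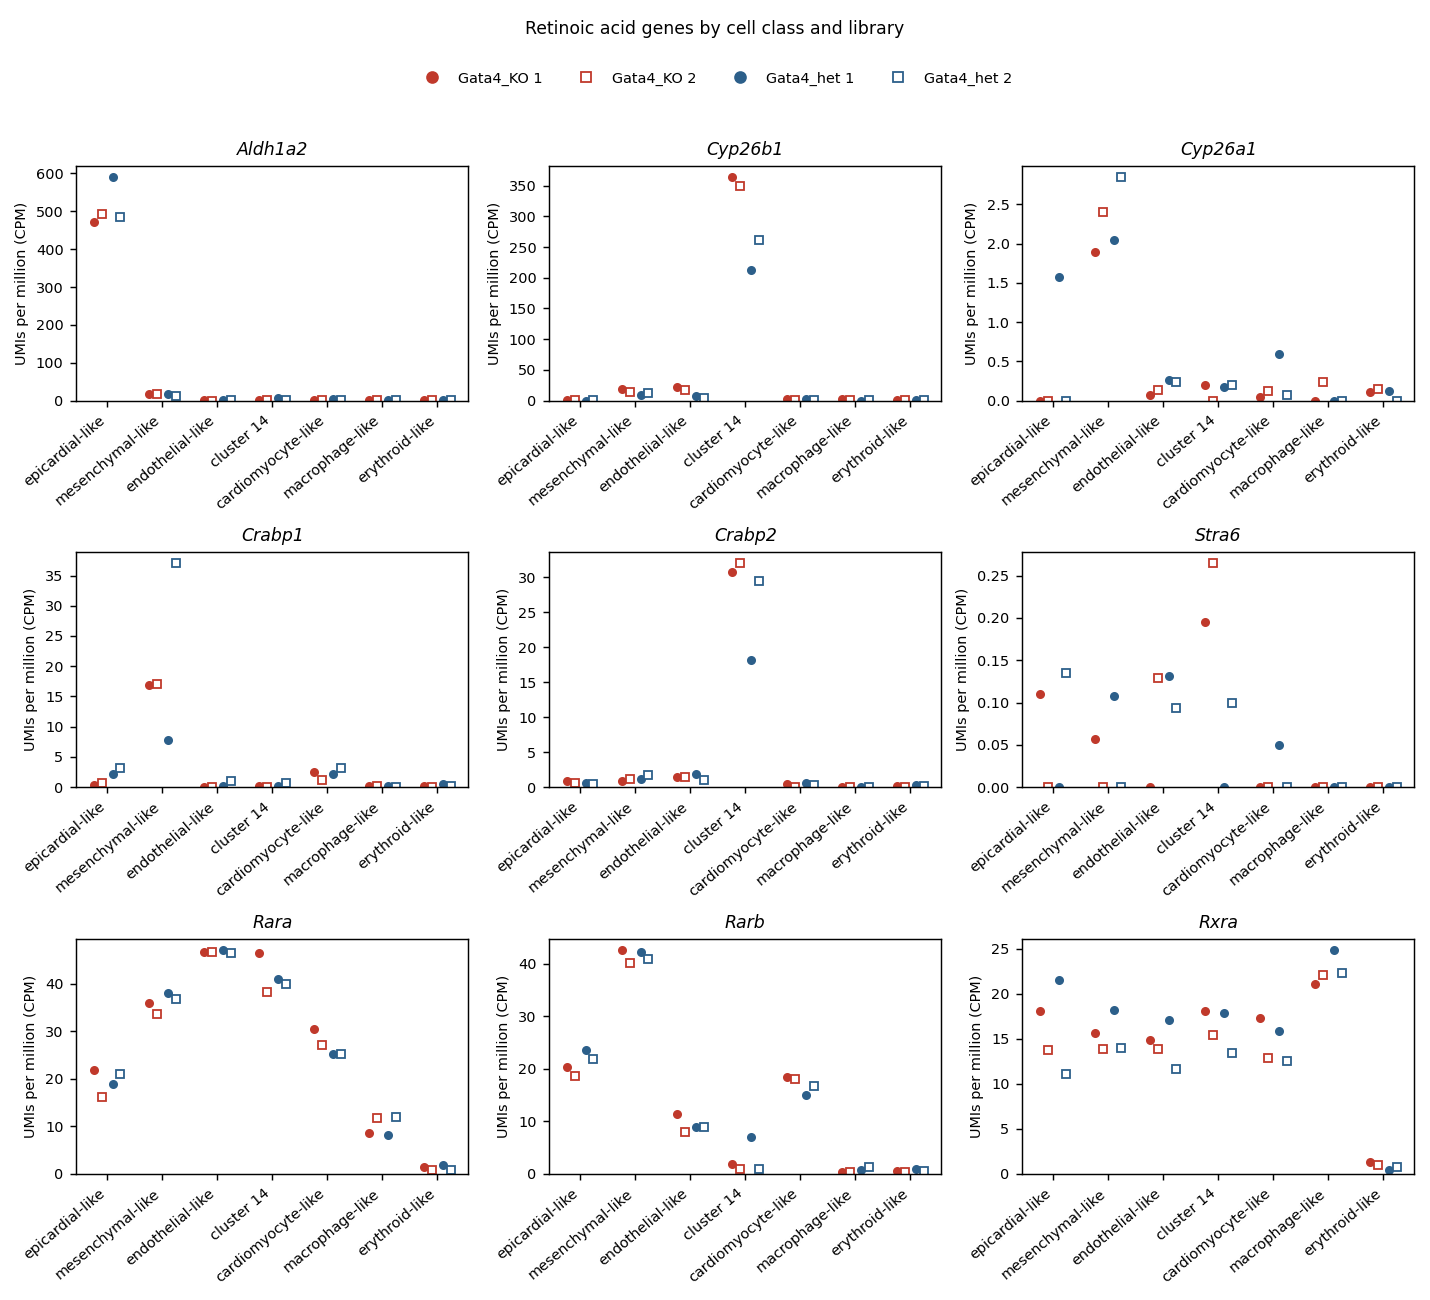
Levels of the 9 genes (CPM, linear axes from 0, a separate scale for each gene) in the 6 classes and in cluster 14, with 1 point per library, KO in red left of het in blue, replicate 1 as filled circles and replicate 2 as open squares. Aldh1a2 stands out in epicardial-like cells (471.2 to 591.3 CPM), Cyp26b1 and Crabp2 in cluster 14, Rarb, Cyp26a1 and Crabp1 in mesenchymal-like cells, and Rxra is at 11.1 CPM or more in every unit but erythroid-like cells.

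Cyp26b1, which clears retinoic acid, was highest in cluster 14, where Aldh1a2 was low. Cluster 14 held 7026 of the 9925 Cyp26b1 UMIs in all kept cells, and its Aldh1a2 level was 0.265 to 6.53 CPM over the 4 libraries. Cyp26b1 stood in cluster 14 at 364.4 and 348.8 CPM in KO libraries, against 211.9 and 260.7 CPM in het libraries. Both KO libraries lay above both het libraries, with a log2 difference of 0.56 (SE 0.189, edgeR adjusted p = 1). The lowest library was het 1, in which cardiomyocyte markers took 1.05% of cluster 14 UMIs, against 0.192 to 0.209% in the others. Its cluster 14 cells had a median of 3986 UMIs, against 16398 to 25431 in the others. The part of either in the difference was not tested. The thinned share of cluster 14 cells with a Cyp26b1 UMI was 42.1 and 36.7% in KO libraries, against 21.4 and 30.1% in het libraries, and without thinning it was 71.7 and 71.7% in KO libraries, against 36.9 and 61.4% in het libraries. Cyp26b1 was among the 10 genes that lead cluster 14 by fold, although it was not used to form it.

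The upstream sequence of Cyp26b1 is shown because this gene had the lowest p of the 9 between genotypes in endothelial-like cells. The gene lies on chromosome 6 at 84571414 to 84593908, minus strand (GENCODE M21, GRCm38). The stretch printed is 152 bases upstream of the annotated gene, at chr6:84593909-84594060, minus strand, GRCm38.p6, taken from RefSeq and written 5′ to 3′. Capitals would mark a GATA motif, and none was found.

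Cyp26b1 upstream: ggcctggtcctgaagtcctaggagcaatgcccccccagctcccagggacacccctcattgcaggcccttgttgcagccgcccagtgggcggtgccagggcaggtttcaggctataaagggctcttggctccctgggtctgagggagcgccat

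The motif searched on both strands was NGATAN with A or T as its first base and A or G as its last, over the 250 bases before each start site in the RefSeq table. Of 32851 such windows, 8718 (26.5%) held at least 1. Among the 15 windows found for 8 of the 9 genes, 1 window of Stra6 held a match, 216 bases upstream of its start, and the Cyp26b1 window held none. A window without this motif says nothing about binding elsewhere.

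In endothelial-like cells Cyp26b1 stood at 21.8 and 16.6 CPM in KO libraries, against 6.73 and 4.61 CPM in het libraries. The UMIs behind these values numbered 319 and 258 in KO libraries, against 51 and 99 in het libraries. The groups did not overlap, and the means were 19.2 ± 3.66 CPM in KO libraries and 5.67 ± 1.496 CPM in het libraries (SD, n = 2 each). The log2 difference was 1.79 (SE 0.229), with the seventh lowest p among 14879 genes, and it did not pass the threshold of 0.05 over all genes (edgeR adjusted p = 0.229). The call depended on the tool, the fit and the libraries: DESeq2 called the gene (adjusted p = 4.99e-05), and so did edgeR without the filter on low counts (adjusted p = 2.84e-10) and with the replicate number as a block (adjusted p = 5.66e-05). It was also called by edgeR when KO 1 (adjusted p = 1.92e-05), KO 2 (8.75e-08) or het 1 (0.00206) was left out, but not when het 2 was (0.101). The log2 difference ran from 1.57 to 1.98 over those 4 omissions.

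The difference was present in the endocardial-like cluster 11, led by Col23a1 and Adh6b, with Plvap, Vwf and Npr3 among its leading genes. Cyp26b1 stood there at 24.8 and 20.1 CPM in KO libraries, against 8.66 and 5.33 CPM in het libraries. Cluster 22, the vascular-like one led by Fabp4, had 14.1 and 2.55 CPM in KO libraries, against 2.80 and 2.87 CPM in het libraries, so its groups overlapped. With cluster 11 alone the log2 difference was 1.76 (edgeR adjusted p = 0.122). Cluster 22 made up 20.5 and 16.9% of endothelial-like cells in KO libraries, against 41.3 and 19.4% in het libraries.

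Values that could move with this difference are given beside it. Wnt4, the leading gene of cluster 14, stood in endothelial-like cells at 17.0 and 18.3 CPM in KO libraries, against 14.1 and 33.5 CPM in het libraries, so it was not higher in KO as a group. The other leader, Wnt9b, had 1.501 and 0.257 CPM in KO libraries, against 1.32 and 0.652 CPM in het libraries. Cluster 14 made up 1.91 and 1.67% of kept cells in KO libraries, against 3.22 and 4.10% in het libraries. Cluster 9 carried endothelial markers but stayed outside the endothelial-like class, because cardiomyocyte markers took 1% or more of its UMIs. It held 53 and 1 cells in KO libraries, against 2219 and 25 cells in het libraries. Cyp26b1 stood there at 19.11 CPM in het 1 (219 UMIs), above the highest named class of that library (8.3 CPM). The difference with cluster 9 in the class was not tested. All 15 mesenchymal markers were detected in endothelial-like cells, and together they took 0.143 and 0.124% of UMIs in KO libraries, against 0.130 and 0.103% in het libraries. The 16 cardiomyocyte markers, also all detected, took 0.237 and 0.0998% in KO libraries, against 0.343 and 0.221% in het libraries. When cluster 14 and the low-count cluster 18 were added to the class, a choice made after the data were seen, the log2 difference was 0.09 (edgeR adjusted p = 1). In all kept cells Cyp26b1 stood at 17.5 and 14.97 CPM in KO libraries, against 13.1 and 17.96 CPM in het libraries, and the groups overlapped.

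The thinned share of endothelial-like cells with a Cyp26b1 UMI was 3.03% (95% exact binomial interval 1.93 to 4.51) and 4.24% (2.57 to 6.54) in KO libraries, against 1.54% (0.708 to 2.91) and 1.06% (0.458 to 2.07) in het libraries. Without thinning, at medians of 14447 and 27394 UMIs per KO cell and 7770 and 20510 UMIs per het cell, the shares were 13.9 and 15.8% in KO libraries, against 4.22 and 5.76% in het libraries. Thinned shares in erythroid-like cells were 0.0455 and 0.252% in KO libraries, against 0.103 and 0.254% in het libraries. The endothelial-like shares lay above that background in every library, but in het 2 the intervals overlapped (erythroid-like 0.0692 to 0.649).

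**Figure D2:**
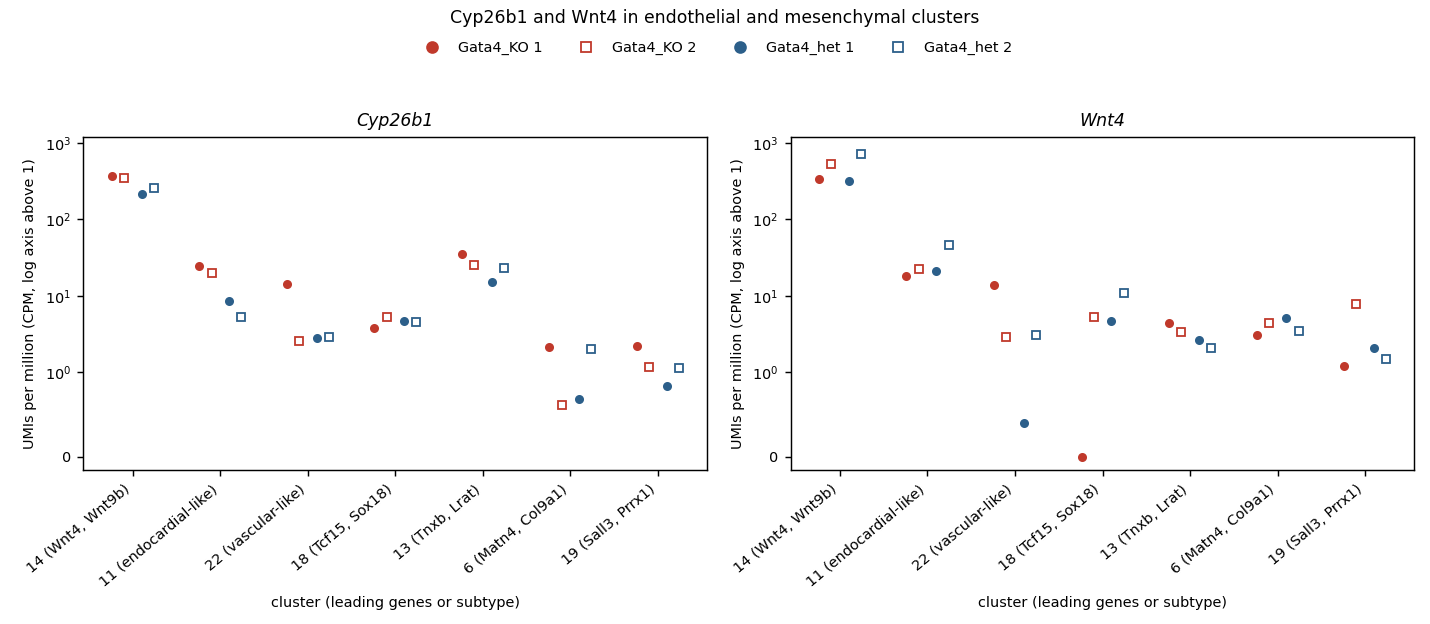
Cyp26b1 (left) and Wnt4 (right) in clusters 14, 11, 22, 18, 13, 6 and 19 (CPM, axis logarithmic above 1 and linear below), with 1 point per library, KO in red left of het in blue. Cyp26b1 in cluster 11 was at 24.8 and 20.1 CPM in KO libraries, against 8.66 and 5.33 CPM in het libraries, while Wnt4 there was at 18.2 and 22.1 CPM in KO libraries, against 20.9 and 46.1 CPM in het libraries.

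Mesenchymal-like cells were the other named class with Cyp26b1. Their levels were 18.4 and 13.7 CPM in KO libraries, against 8.30 and 11.8 CPM in het libraries, and the groups did not overlap. The log2 difference was 0.62 (SE 0.232, edgeR adjusted p = 1). As with Aldh1a2, the transcript lay in cluster 13, at 34.9 and 25.1 CPM in KO libraries, against 15.1 and 23.2 CPM in het libraries. Cluster 6 had 2.16 and 0.611 CPM in KO libraries, against 0.687 and 1.98 CPM in het libraries.

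Over 4 libraries the class means were 13.1 CPM in mesenchymal-like and 12.4 CPM in endothelial-like cells, whose libraries overlapped, and then 1.66 CPM in cardiomyocyte-like cells, which did not overlap with them. Epicardial-like, macrophage-like and erythroid-like cells followed at 1.06, 0.847 and 0.423 CPM, each overlapping its neighbour. In cardiomyocyte-like cells Cyp26b1 stood at 1.99 and 0.53 CPM in KO libraries, against 2.68 and 1.44 CPM in het libraries. The KO mean was the lower one there (1.26 against 2.06 CPM), and the groups overlapped. In epicardial-like cells Cyp26b1 stood at 1.43 and 1.74 CPM in KO libraries, against 0 and 1.08 CPM in het libraries. Both KO libraries lay above both het libraries there, but the 0 of het 1 stands for up to 3 UMIs. The effect of genotype on Cyp26b1 in endothelial-like cells was set against that in other classes by an interaction with library as a block. It exceeded the effect in mesenchymal-like cells by 1.23 on the log2 scale (SE 0.270, edgeR adjusted p = 0.194), in cardiomyocyte-like cells by 2.48 (SE 0.487, adjusted p = 0.974) and in epicardial-like cells by 1.03 (SE 0.736, adjusted p = 1). None of these differences of Cyp26b1 passed the threshold.

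Cyp26a1, the other clearing oxidase measured, was scarce, with 346 UMIs in all kept cells, and 187 of them came from cluster 6. That cluster had 3.74 and 5.15 CPM in KO libraries, against 4.35 and 5.19 CPM in het libraries. Cluster 13 had 0 UMIs in KO 1, KO 2 and het 1, and 0.157 CPM in het 2. The oxidases thus lay in different mesenchymal-like clusters, Cyp26a1 in cluster 6 and Cyp26b1 in cluster 13. In the class as a whole Cyp26a1 stood at 1.89 and 2.40 CPM in KO libraries, against 2.05 and 2.85 CPM in het libraries, a log2 difference of −0.22 (SE 0.347, edgeR adjusted p = 1) with overlapping groups. The mesenchymal-like mean of 2.30 CPM was 5.86-fold above the next class, epicardial-like cells, whose value rests on 3 UMIs in het 1. Without het 1 the mesenchymal-like mean was 2.38 CPM, 16.6-fold above the next class. The other 5 classes averaged 0.0576 to 0.393 CPM over 4 libraries.

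Direct repeats of a receptor half-site separated by 5 bases (DR5) are the textbook form of retinoic acid response element, and both Rarb and Cyp26a1 are known to be induced through such elements. The sequences are shown to place these elements beside the levels of the genes. The half-site searched was NGNTCA with A or G as its first base and G or T as the third, any pair in the same orientation, on both strands. A match was found in 29 of the 32851 windows (0.0883%). Of the 8 genes with a window, Cyp26a1 and Rarb held 1 each. Capitals mark the repeat with its spacer. Repeats with a spacer of 2 bases were found in 57 windows (0.174%), none of them of these genes. A match is a description of the sequence and does not show that a receptor was bound there.

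Cyp26a1 upstream, chr19:37697558-37697797, plus strand, GRCm38.p6: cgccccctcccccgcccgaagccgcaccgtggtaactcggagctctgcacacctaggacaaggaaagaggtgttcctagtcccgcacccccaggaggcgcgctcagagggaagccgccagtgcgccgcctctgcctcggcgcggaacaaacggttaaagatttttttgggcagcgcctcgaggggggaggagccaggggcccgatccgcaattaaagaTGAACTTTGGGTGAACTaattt
Rarb repeat with 6 bases on each side, chr14:16575507-16575535, minus strand, GRCm38.p6: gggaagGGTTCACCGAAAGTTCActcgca

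The Cyp26a1 repeat begins 32 bases upstream of the RefSeq start at chr19:37697808 and reads on the opposite strand. The printed stretch stops earlier, where the annotated gene begins (37697798). The Rarb repeat begins 53 bases upstream of the RefSeq start at chr14:16575476 and reads on the strand of the gene. That start lies inside the annotated span of Rarb (16430839 to 16819156) and not at its end.

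Rarb, the receptor gene with this element, was highest in mesenchymal-like cells. It stood there at 42.7 and 40.2 CPM in KO libraries, against 42.3 and 40.8 CPM in het libraries, and the groups overlapped. Epicardial-like cells averaged 21.1 ± 2.07 CPM, cardiomyocyte-like cells 17.0 ± 1.48 CPM and endothelial-like cells 9.24 ± 1.51 CPM over 4 libraries, each apart from the next. Macrophage-like and erythroid-like cells, at 0.599 and 0.486 CPM, overlapped. Within the mesenchymal-like class Rarb was higher in cluster 13, with 60.7 and 52.8 CPM in KO libraries, against 60.7 and 52.0 CPM in het libraries. Cluster 6 had 25.0 and 25.9 CPM in KO libraries, against 21.5 and 31.2 CPM in het libraries. Cluster 13 thus held more Aldh1a2, Cyp26b1 and Rarb than cluster 6 in every library.

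Rarb was close to background in cluster 14, the cells with most Cyp26b1. It stood at 1.75 and 0.794 CPM in KO libraries, against 6.89 and 0.791 CPM in het libraries, and the higher het library was het 1, in which the 16 cardiomyocyte markers took 1.05% of cluster 14 UMIs, against 0.192 to 0.209% in the others. In the endocardial-like cluster 11, Rarb had 14.5 and 9.26 CPM in KO libraries, against 10.8 and 11.2 CPM in het libraries. Between genotypes the log2 difference of Rarb was −0.01 (SE 0.131) in mesenchymal-like cells, −0.21 (SE 0.199) in epicardial-like cells, 0.09 (SE 0.223) in endothelial-like cells and 0.16 (SE 0.143) in cardiomyocyte-like cells, with an edgeR adjusted p of 1 in each.

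Rara, the more widely used receptor gene, had a graded order of classes. In endothelial-like cells it stood at 46.8 and 46.7 CPM in KO libraries, against 47.2 and 46.6 CPM in het libraries. The 4 values lay within a range of less than 1 CPM. Mesenchymal-like cells averaged 36.2 ± 1.85 CPM, cardiomyocyte-like cells 26.97 ± 2.44 CPM, epicardial-like cells 19.5 ± 2.59 CPM, macrophage-like cells 10.1 ± 1.96 CPM and erythroid-like cells 1.22 ± 0.578 CPM over 4 libraries. The libraries of each class lay apart from those of its neighbours in this order. Cluster 14 had 46.5 and 38.4 CPM in KO libraries, against 41.0 and 39.95 CPM in het libraries, close to the endothelial-like level. The log2 difference between genotypes was −0.01 (SE 0.147, edgeR adjusted p = 1) in endothelial-like cells.

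Rxra, the shared partner, differed least between classes. Macrophage-like cells had 21.1 and 22.1 CPM in KO libraries, against 24.9 and 22.3 CPM in het libraries. Epicardial-like, mesenchymal-like, cardiomyocyte-like and endothelial-like cells averaged 16.1, 15.4, 14.6 and 14.3 CPM, each overlapping its neighbour. Erythroid-like cells stood apart at 0.851 CPM. Without het 1 the macrophage-like libraries no longer overlapped the next class, with a mean of 21.9 CPM, 1.51-fold above mesenchymal-like cells. The log2 difference between genotypes was 0.02 (SE 0.206) in endothelial-like cells and −0.12 (SE 0.181) in macrophage-like cells, with an edgeR adjusted p of 1 in both.

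Crabp1, a cytoplasmic carrier, was found mainly in cluster 6, which held 1780 of its 2977 UMIs. It stood in that cluster at 33.2 and 35.9 CPM in KO libraries, against 16.3 and 68.6 CPM in het libraries. The het libraries lay on either side of both KO libraries. Cluster 13 had 0.346 to 0.630 CPM over the 4 libraries, and the unnamed cluster 19, which carried mesenchymal markers, had 19.3 and 20.4 CPM in KO libraries, against 9.19 and 29.7 CPM in het libraries. Crabp1 and Cyp26a1 thus shared cluster 6, while Aldh1a2, Cyp26b1 and the higher level of Rarb lay in cluster 13.

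The genotype difference of Crabp1 in mesenchymal-like cells turned on the het libraries. The levels were 16.9 and 17.0 CPM in KO libraries, against 7.87 and 37.0 CPM in het libraries, and the log2 difference was −0.48 (SE 0.535, edgeR adjusted p = 1). Without het 1 it was −1.16 and passed the threshold (edgeR adjusted p = 0.000699), and without het 2 it was 1.15 (adjusted p = 0.138). In epicardial-like cells Crabp1 rested on 35 UMIs, at 0.329 and 0.725 CPM in KO libraries, against 2.09 and 3.11 CPM in het libraries. The log2 difference of −2.43 (SE 0.694) did not pass over all genes (edgeR adjusted p = 1).

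Crabp2, the carrier known to deliver retinoic acid to its receptors, was found mainly in cluster 14, with 680 of its 1052 UMIs. It stood there at 30.8 and 32.0 CPM in KO libraries, against 18.2 and 29.5 CPM in het libraries. Both KO libraries lay above both het libraries, but het 2 was near them, and the log2 difference was 0.35 (SE 0.264, edgeR adjusted p = 1). The lowest library was again het 1, with its higher share of cardiomyocyte markers in cluster 14. Cluster 14 thus paired the highest Cyp26b1 with the highest Crabp2, while Rara and Rxra were present and Rarb was low. In endothelial-like cells Crabp2 had 1.501 and 1.41 CPM in KO libraries, against 1.85 and 1.07 CPM in het libraries. Macrophage-like cells had 0 UMIs in all 4 libraries, which allows at most 0.398 and 0.691 CPM in KO libraries, against 0.649 and 0.469 CPM in het libraries.

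Stra6, the retinol uptake receptor, was barely detected. All kept cells together held 17 Stra6 UMIs, 3 and 3 in KO libraries, against 6 and 5 in het libraries. No class passed the filter on low counts, so Stra6 was not tested, and its level was not distinguishable from background at this depth.

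Between genotypes, none of the 9 genes passed the threshold in any class. In endothelial-like cells 6 of the 9 passed the filter on low counts, and edgeR called 0 of them, beside 0 of 14879 genes (0%); at an unadjusted p under 0.05 there was 1 of the 6 (Cyp26b1), beside 557 genes (3.74%). DESeq2 called 32 genes, Cyp26b1 among them. In mesenchymal-like cells 8 were tested and 0 called, beside 0 of 16264 genes (0%), with 1 (Cyp26b1) beside 165 genes (1.01%) at the unadjusted level and 0 DESeq2 calls. In epicardial-like cells 6 were tested and 0 called, beside 0 of 13913 genes (0%), with 1 (Crabp1) beside 229 genes (1.65%) unadjusted and 3 DESeq2 calls, none of them among the 9. In cardiomyocyte-like cells 6 were tested and 0 called, beside 0 of 15324 genes (0%), with 0 beside 205 genes (1.34%) unadjusted and 1 DESeq2 call, not among the 9.

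In macrophage-like cells 2 were tested and 0 called, beside 0 of 11938 genes (0%), with 0 beside 214 genes (1.79%) unadjusted and 3 DESeq2 calls, none among the 9. The erythroid-like class differed in makeup between genotypes, with cluster 17 at 33.1 and 38.3% of its cells in KO libraries, against 2.35 and 8.97% in het libraries. In it 5 were tested and 0 called, beside 0 of 12480 genes (0%), with 1 (Rarb) beside 2116 genes (17%) unadjusted and 432 DESeq2 calls, none among the 9. In cluster 14, 4 were tested and 0 called, beside 0 of 13065 genes (0%), with 1 (Cyp26b1) beside 551 genes (4.22%) unadjusted and 32 DESeq2 calls, none among the 9. In the interactions, edgeR called 14 of 16791 genes (0.0834%) for endothelial-like against mesenchymal-like cells, 13 of 15350 (0.0847%) against epicardial-like cells and 0 of 16812 (0%) against cardiomyocyte-like cells, and none of the 9 was among those called. At an unadjusted p under 0.05 there were 2 of the 9 (Cyp26b1 and Crabp1) beside 844 genes (5.03%) against mesenchymal-like cells, 0 beside 845 genes (5.5%) against epicardial-like cells, and 2 (Cyp26b1 and Crabp1) beside 602 genes (3.58%) against cardiomyocyte-like cells. The median log2 difference of the tested genes of the 9 was 0.04 in endothelial-like cells, −0.12 in mesenchymal-like cells and −0.12 in epicardial-like cells, beside medians of −0.00197, 0.000935 and −0.00324 over all genes tested in those classes.

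**Figure D3:**
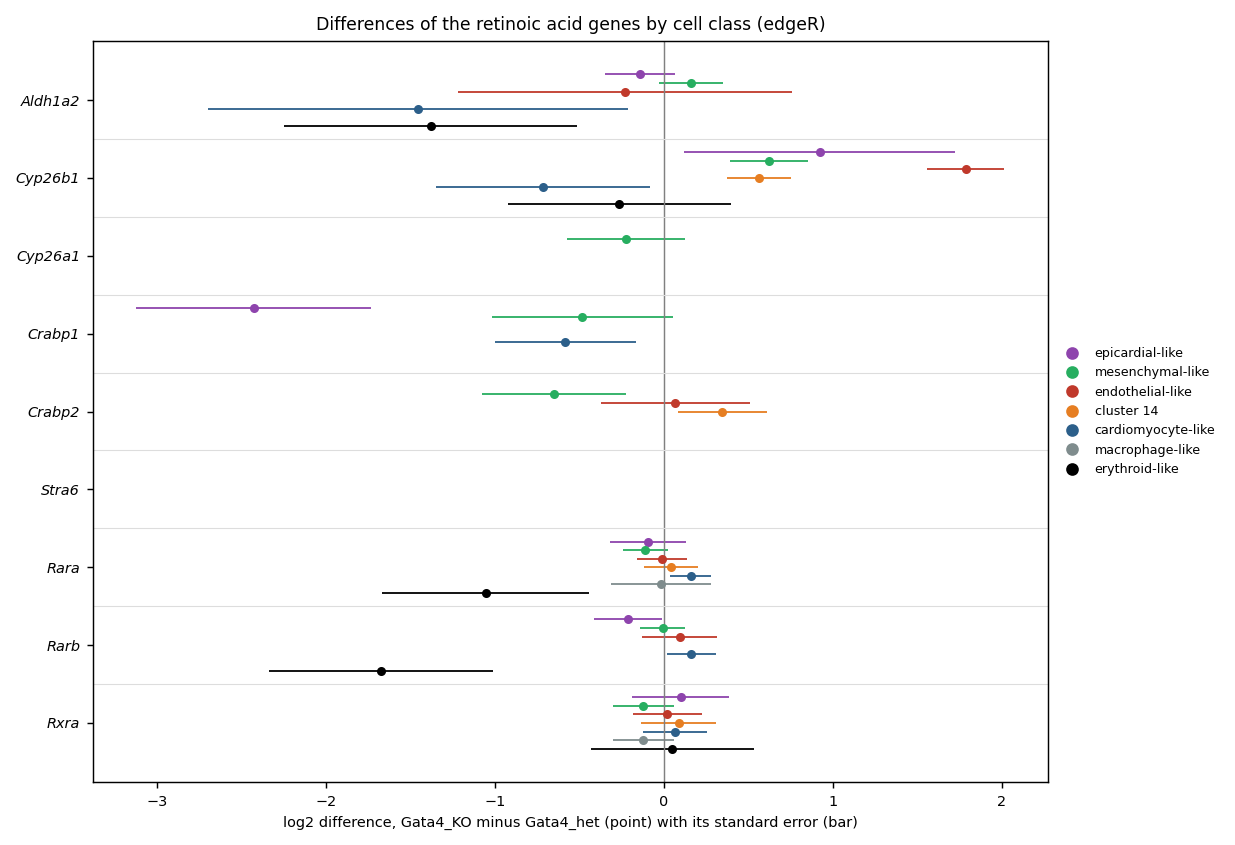
Log2 difference of each of the 9 genes, KO minus het, in each class and in cluster 14 (horizontal axis, bars are the SE of the edgeR fit, the line marks 0). Cyp26b1 lies above 0 in endothelial-like cells (1.79), mesenchymal-like cells (0.62) and cluster 14 (0.56). In epicardial-like cells, where few of its UMIs were counted, both KO libraries also lay above both het libraries in CPM. In cardiomyocyte-like cells the KO mean of Cyp26b1 was the lower one (1.26 against 2.06 CPM), with overlapping groups. Rara lies within 0.16 of 0 in the named classes other than erythroid-like cells, and Stra6 was not tested.

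Other genes of the pathway were read from the same fits. Of the list, 29 genes were tested in endothelial-like cells, 14 with a log2 difference above 0 and 0 called. In mesenchymal-like cells 13 of 33 were above 0, in epicardial-like cells 13 of 33, in cardiomyocyte-like cells 13 of 29, in macrophage-like cells 11 of 21, in erythroid-like cells 6 of 23 and in cluster 14, 8 of 28. None was called by edgeR in any of them. At an unadjusted p under 0.05 there were 4 in endothelial-like cells, beside 3.74% of all genes tested there. Mesenchymal-like cells had 3 (1.01% of all genes), epicardial-like cells 1 (1.65%), cardiomyocyte-like cells 2 (1.34%) and macrophage-like cells 1 (1.79%). There were 6 in erythroid-like cells (17%) and 1 in cluster 14 (4.22%). The counts above 0 are not set here against the share of all genes above 0. DESeq2 called 2 of the list, both lower in KO, in erythroid-like cells and 0 in endothelial-like cells. Median log2 differences of the list lay between −0.25 in erythroid-like cells and 0.01 in macrophage-like cells.

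Adh1, an alcohol dehydrogenase that can oxidise retinol, had the lowest p of the list in endothelial-like cells. It stood at 10.8 and 10.9 CPM in KO libraries, against 4.75 and 4.75 CPM in het libraries. The log2 difference of Adh1 was 1.18 (SE 0.211, edgeR adjusted p = 0.460). Adh1 was picked for its low p, so groups that do not overlap follow largely from that choice. The same holds for Hoxb2, Rarg, Aldh1a3, Hoxb4, Aldh1a1, Osr1, Fabp5, Fabp4 and Hoxb1 below, in the classes given for each. Hoxb2, a hindbrain patterning gene that responds to retinoic acid, had 4.64 and 3.79 CPM in KO libraries, against 2.24 and 1.82 CPM in het libraries (log2 difference 1.06, SE 0.309, edgeR adjusted p = 0.926). Rarg, the third RAR gene, had 8.73 and 6.37 CPM in KO libraries, against 12.53 and 10.6 CPM in het libraries (log2 difference −0.62, SE 0.213, edgeR adjusted p = 1). It was lower in both KO libraries, without passing the threshold.

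Aldh1a3, another retinal dehydrogenase, was scarce. It stood higher in KO libraries in the units given here, which are those where it had one of the lowest p of the list. In endothelial-like cells it had 2.87 and 1.09 CPM in KO libraries, against 0.528 and 0.839 CPM in het libraries (log2 difference 1.39, SE 0.582). In mesenchymal-like cells it had 2.92 and 6.89 CPM in KO libraries, against 2.37 and 1.79 CPM in het libraries (1.30, SE 0.447). In cluster 14 it had 3.70 and 2.38 CPM in KO libraries, against 0.883 and 0.198 CPM in het libraries (2.63, SE 0.711). The erythroid-like class, whose cluster makeup differed between genotypes, stood higher in KO libraries too, with 3.88 and 2.27 CPM in KO libraries, against 0.191 and 0.552 CPM in het libraries (2.04, SE 0.533). None passed the threshold (edgeR adjusted p of 0.225 to 1), the units share their libraries, and the part of background and of cluster makeup in these values was not tested.

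Hoxb4, also responsive to retinoic acid, lay lower in KO libraries in mesenchymal-like cells, at 0.629 and 1.02 CPM, against 2.48 and 2.23 CPM in het libraries (log2 difference −1.47, SE 0.405). In epicardial-like cells it had 3.51 and 2.75 CPM in KO libraries, against 8.37 and 5.82 CPM in het libraries (−1.10, SE 0.379). Aldh1a1, a retinal dehydrogenase related to Aldh1a2, had 3.72 and 3.50 CPM in mesenchymal-like cells of KO libraries, against 4.53 and 7.38 CPM in het libraries (−0.77, SE 0.297). Neither gene passed the threshold (edgeR adjusted p of 1 in each). In cardiomyocyte-like cells the lowest p belonged to Osr1, a transcription factor of heart field cells, at 0.357 and 0.760 CPM in KO libraries, against 2.24 and 1.53 CPM in het libraries (−1.76, SE 0.503, edgeR adjusted p = 1). Fabp5, which can also carry retinoic acid, had 124.5 and 127.5 CPM in KO libraries, against 308.7 and 157.9 CPM in het libraries there (−0.90, SE 0.306, edgeR adjusted p = 1), and the higher het library was het 1.

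In macrophage-like cells the lowest p belonged to Fabp4, a fatty acid carrier, at 2.65 and 2.30 CPM in KO libraries, against 5.63 and 4.84 CPM in het libraries (log2 difference −1.05, SE 0.345, edgeR adjusted p = 1). Epicardial-like cells had Hoxb1, a further responder, at 1.10 and 1.30 CPM in KO libraries, against 4.19 and 2.16 CPM in het libraries (−1.24, SE 0.590, edgeR adjusted p = 1).

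On the supply side of the pathway, Rdh10, which oxidises retinol to retinal, was highest in epicardial-like cells, the class that held most Aldh1a2. It stood there at 56.8 and 58.1 CPM in KO libraries, against 52.9 and 44.0 CPM in het libraries (log2 difference 0.27, SE 0.179, edgeR adjusted p = 1), 4.88-fold above the next class, mesenchymal-like cells, at 10.8 CPM.

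Dhrs3, which turns retinal back to retinol, was highest in macrophage-like cells, at 166.3 and 96.7 CPM in KO libraries, against 142.8 and 99.5 CPM in het libraries. Mesenchymal-like cells averaged 37.5 CPM, cardiomyocyte-like cells 12.02 CPM and epicardial-like cells 4.20 CPM. Rarg averaged 23.8 CPM in mesenchymal-like and 9.55 CPM in endothelial-like cells, and 0.268 to 4.81 CPM in the other 4 classes. Rxrb, an alternative partner of the receptors, was even across classes, at 18.8 to 28.2 CPM in all but erythroid-like cells, which averaged 6.42 CPM. Nr2f2, a nuclear receptor induced by retinoic acid in other settings, averaged 197.2 CPM in endothelial-like, 86.8 CPM in epicardial-like, 41.9 CPM in mesenchymal-like, 11.4 CPM in cardiomyocyte-like, 1.10 CPM in macrophage-like and 1.11 CPM in erythroid-like cells. Epo, a known target in the embryo, had 0 UMIs in all kept cells.

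**Figure D4:**
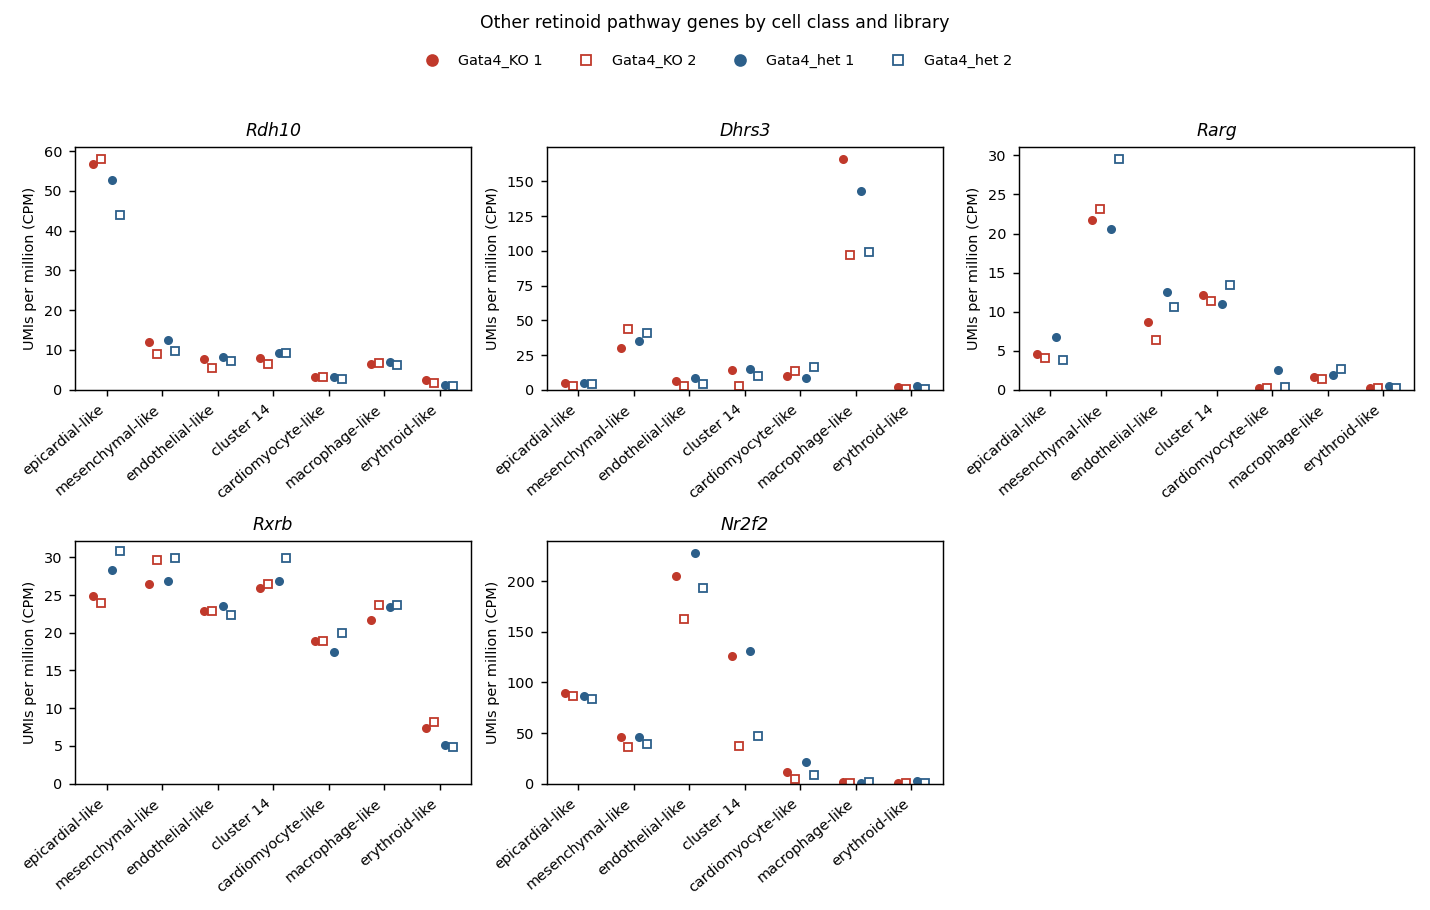
Levels of Rdh10, Dhrs3, Rarg, Rxrb and Nr2f2 (CPM, linear axes from 0, a separate scale for each gene) by class and in cluster 14, with 1 point per library, KO in red left of het in blue. Rdh10 is highest in epicardial-like cells (44.0 to 58.1 CPM) and Dhrs3 in macrophage-like cells (96.7 to 166.3 CPM).

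For the 4 genes of the set with a class mean of at least 20 CPM, the genes of most similar pattern were sought among 8175 candidates by Pearson's r of log2(CPM + 1) over 24 points, the 6 classes in 4 libraries. These points share libraries, so r is a description only. Aldh1a2 was most like Myrf (r = 0.992), Apela (0.990) and Aldh1a1 (0.988), which averaged 278.0, 371.5 and 97.1 CPM in epicardial-like cells. Rarb was most like Sdk2 (0.992), Loxl2 (0.986) and Fzd1 (0.985), with mesenchymal-like means of 36.4, 275.1 and 42.3 CPM. Rara was most like Spats2 (0.987), Rras (0.984) and Nr2f6 (0.980). Rxra was most like Dnajb14 (0.987), Wdfy3 (0.985) and Snx13 (0.984).

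By the GENCODE M21 annotation (GRCm38), Aldh1a2 lies on chromosome 9 at 71215789 to 71296243, Cyp26a1 on chromosome 19 at 37697798 to 37701536, Rara on chromosome 11 at 98927818 to 98974942, Rarb on chromosome 14 at 16430839 to 16819156, Rxra on chromosome 2 at 27676440 to 27762957, Crabp1 on chromosome 9 at 54764748 to 54773110, Crabp2 on chromosome 3 at 87948666 to 87953376 and Stra6 on chromosome 9 at 58063788 to 58153996. No exon of another gene on the same strand overlaps an exon of any of the 9. Identifiers of 8 of the 9 match the matrices with their version, and that of Rxra differs in version only, so the authors may have counted on another release.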

How the data were processed

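Single-cell RNA was measured in 4 libraries of E12.5 ventricles, 2 labelled Gata4_KO and 2 labelled Gata4_het, and groups follow those labels. The deposited matrices hold raw UMI counts per gene and barcode, made by the authors with Cell Ranger 6.0.1 per the file headers. The submitters' processing notes name Cell Ranger, Seurat and mm10. CPM and all later values were computed from these counts.

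Barcodes needed at least 500 genes and under 20% mitochondrial UMIs. Scrublet (scanpy 1.11.5, expected rate 0.1) called doublets, and 608 and 93 were removed from KO 1 and KO 2, 412 and 242 from het 1 and het 2; the automatic threshold failed in KO 2 and het 1, where 0.323, the median of the working thresholds, was used after the scores were seen. Cells were scaled to 10000 UMIs, with globin UMIs left out of the totals, and log-transformed. The 2000 variable genes excluded the 9 genes, Gata4, Xist, Tsix, globin genes, Y-linked genes and the added sequences. Each was standardised within each library. They gave 30 principal components, 20 neighbours and 39 Leiden clusters (igraph 0.11.9, resolution 1). A cluster was named when its markers averaged a log2 fold of at least 1, at least 3 were detected and 1 was among its 10 leading genes, with cardiomyocyte markers under 1% of UMIs (at least 5% for cardiomyocyte-like clusters). Several clusters with cardiomyocyte markers stayed unnamed under this rule. The cardiomyocyte-like class held 1042 and 473 cells in KO libraries, against 2585 and 1273 cells in het libraries. All clusters with cardiomyocyte markers at 5% or more held 6834 and 3633 cells in KO libraries, against 5229 and 4107 cells in het libraries. Levels and tests of the class thus leave out many such cells.

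UMIs were summed per library and class with at least 50 cells in each library, filtered (filterByExpr, minimum count 10, total 15) and scaled by TMM. The quasi-likelihood test came from edgeR 4.0.16 (R 4.3.3), with Benjamini-Hochberg adjustment over all genes at 0.05. The fits were tested on simulated data. CPM are without TMM. A count of 0 was read as up to 3 UMIs. Alternatives were other scalings, no filter, DESeq2 1.42.0, a replicate block, each library left out, Leiden resolution 0.6, at least 1000 genes per barcode, endocardial-like cells alone, and, added after the data were seen, other class limits and cluster 14. The text names all 9 genes, Gata4, 6 pathway genes by level (1 gene of the list is not reported here), Epo, up to 4 pathway genes of lowest p per class, and the 3 genes most like each of 4 members; Wnt4, Wnt9b and other cluster leaders were added after their values were seen. The members, the pathway list and the marker rules were chosen with earlier results of these data known. The 4 added sequences in the matrices were not analysed here. Promoter windows come from RefSeq (GRCm38.p6); Crabp2 had none. Total counts per library ran from 137890971 to 190207638 UMIs, and intervals cover counting error only.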

Additional observations from a re-analysis of the deposited data

Results flagged for a closer look

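Signal of 2 of the genes appeared in clusters that the comparisons did not use, above the level of every named class in the same library. In cluster 9, which carried endothelial markers mixed with cardiomyocyte markers and came almost wholly from het 1, Cyp26b1 stood at 19.11 CPM in that library (219 UMIs in 2219 cells), above its highest class level there of 8.3 CPM. Crabp2 stood in the same cluster and library at 3.141 CPM (36 UMIs), above its highest class level there of 1.847 CPM. In cluster 32, led by Wfdc17 and Clec4n, Cyp26b1 stood at 55.06 CPM in het 1 (22 UMIs in 79 cells), above the same 8.3 CPM. The last of these rests on few cells, and Bmp10 and Trpm3 were among the leading genes of that cluster.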

How the results depend on the processing

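No difference reversed among results with an unadjusted p under 0.05. Of 1104 recomputed differences of single genes, 982 kept their side of the threshold and their sign, 57 passed it newly, and 65 changed sign without being called under the settings of the report. None of these single genes was called under those settings, so none could lose a call. Of 303 recomputed counts, levels and shares, 208 stayed within the limits set for them and 95 moved beyond. Without the filter on low counts, edgeR called 180 genes in endothelial-like, 260 in cardiomyocyte-like, 27 in mesenchymal-like, 20 in epicardial-like, 94 in macrophage-like and 900 in erythroid-like cells and 261 in cluster 14, 7 for the endothelial-like effect against the cardiomyocyte-like one, 226 against the mesenchymal-like one and 159 against the epicardial-like one; of the 9 genes it called 1 (Cyp26b1) in endothelial-like cells and 1 in each of the first 2 of these contrasts. DESeq2 called 32, 1, 3, 3 and 432 genes in endothelial-like, cardiomyocyte-like, epicardial-like, macrophage-like and erythroid-like cells and 32 in cluster 14, with 1 of the 9 in endothelial-like cells. Scaling by library totals alone gave 4766 calls in erythroid-like cells, where it moved the median of all genes to 0.92 on the log2 scale. Endocardial-like cells alone gave 3 calls, and 39 and 63 calls against mesenchymal-like and epicardial-like cells, and Leiden resolution 0.6 gave 6 against mesenchymal-like cells. The cause of these shifts was not tested.

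Replicate numbers are shared by the groups, but with 2 pairs they do not establish a pairing. Deviations of same-numbered libraries correlated at 0.357 to 0.574 across genes. With the replicate block, edgeR called 504 genes in endothelial-like, 1 in cardiomyocyte-like, 42 in mesenchymal-like, 101 in epicardial-like, 53 in macrophage-like and 3141 in erythroid-like cells and 52 in cluster 14, with 1 of the 9 in endothelial-like cells (Cyp26b1, adjusted p = 5.66e-05) and 3 in erythroid-like cells. Leaving out 1 library at a time, which assumes that the lone library of a group varies like the other group, gave 9 to 196 calls in endothelial-like, 0 to 79 in cardiomyocyte-like, 12 to 46 in mesenchymal-like, 14 to 99 in epicardial-like, 7 to 102 in macrophage-like and 6 to 3391 in erythroid-like cells and 0 to 322 in cluster 14. The contrasts gave 0 to 388, 0 to 52 and 0 to 120 calls against cardiomyocyte-like, mesenchymal-like and epicardial-like cells. Of the 9 genes, these omissions called 0 to 1 in endothelial-like cells, 0 to 1 in mesenchymal-like cells, 0 to 2 in erythroid-like cells, 0 to 2 in cluster 14, and 0 to 1 in the contrasts with cardiomyocyte-like and with mesenchymal-like cells.

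Weighting cells equally gave 2.98 CPM for Cyp26a1 and 40.3 CPM for Rarb in mesenchymal-like cells and 27.2 CPM for Rxra in macrophage-like cells. Shares of cells moved with depth. In the class of highest level, thinning to 1000 UMIs gave 38.4% for Aldh1a2, 1.05% for Cyp26b1, 0.292% for Cyp26a1, 4.63% for Rara, 3.52% for Rarb, 2.03% for Rxra and 0% for Stra6, and no thinning gave 95.7, 10.1, 2.18, 51, 39.6, 41.2 and 0.186% for these genes, 12.6% for Crabp1 and 2.74% for Crabp2. Few UMIs limit the precision for Stra6 and Cyp26a1, with 17 and 346 UMIs in all kept cells, and for Crabp1 in endothelial-like cells, with 26 UMIs, and low expression and limited depth cannot be told apart for Stra6.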
